A study of Drosophila melanogaster with 14 samples.

Results

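The genes of the cytosolic ribosomal proteins were examined in RNA-seq libraries of a Drosophila melanogaster ovarian cell line. Members were the genes of the count table whose symbol starts with RpL, RpS or RpLP and a digit, without the paralog pairs RpS5a and RpS5b, RpS10a and RpS10b, RpS14a and RpS14b, RpS19a and RpS19b, and RpL22 and RpL22-like. Of 16727 genes, 92 carried such a name and 82 remained after the 10 paralogs were left out. Each ribosomal protein is a structural part of the large (60S) or the small (40S) subunit of the cytoplasmic ribosome. In Drosophila their promoters typically start transcription within a pyrimidine-rich TCT initiator, and the loss of 1 copy of many of these genes gives the slow-growing Minute phenotype with short bristles. In the ovary, ribosome production is needed for the growth of germline and follicle cells.

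The libraries came from cultured ovarian somatic cells (OSCs), an established line of follicle-cell origin in which piRNAs are made without the factors specific to germ cells, and were strand-marked libraries of poly(A)-selected RNA. RNAi lasted 48 hours and was aimed at l(3)mbt, the gene of a chromatin-bound repressor with MBT domains (L(3)mbt KD), at the gene of its interactor Lint-1 (Lint-1 KD), at the gene of Lint-O (Lint-O KD), or at EGFP, a sequence that fly cells lack (EGFP KD). Each of the 4 groups had 2 libraries, and the labels do not say whether these were separate cultures. A p-value here therefore covers only how far such libraries lie apart, which may be technical. All groups share the cell line and RNAi itself, and all 3 comparisons with EGFP KD share its 2 libraries.

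Reads on genes numbered 18293791 to 20978039 per library. The RNAi target was lower in both libraries that carry its name: l(3)mbt stood at 102.7 and 95.9 CPM (the count of a gene scaled to its library's size) in L(3)mbt KD against 187.3 and 185.7 CPM in EGFP KD, Lint-1 at 9.81 and 12.2 CPM in Lint-1 KD against 57.6 and 51.2 CPM in EGFP KD, and Lint-O at 1.15 and 1.99 CPM in Lint-O KD against 19.9 and 18.0 CPM in EGFP KD. All 9 follicle and ovarian somatic markers had counts, and their sum was 2016 to 2709 CPM in L(3)mbt KD, 2092 to 2484 CPM in Lint-1 KD, 2246 to 2664 CPM in Lint-O KD and 2437 to 2812 CPM in EGFP KD. The 7 germline markers, of which 6 or 7 had counts in each group, summed to 195.8 to 198.0 CPM in L(3)mbt KD, 75.05 to 80.02 CPM in Lint-1 KD, 112.3 to 139.1 CPM in Lint-O KD and 14.0 to 17.6 CPM in EGFP KD, with osk at 0 in 6 of the 8 libraries. Their part in the ribosomal protein values was not tested. Marker sums stayed at 18.7 to 33.7 CPM for hemocytes (6 genes, He at 0 in all libraries), 38.4 to 50.1 CPM for muscle (7 genes) and 27.4 to 61.0 CPM for neurons (6 genes).

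The ribosomal protein genes were among the most abundant transcripts of these cells. Levels between genes are compared as CPM per kb of gene span, introns included, from the RefSeq gene table (Release 6, dm6). In EGFP KD the members' median was 2166 CPM per kb, against 9.83 CPM per kb over the 8154 tested genes with a span. Of the 76 tested members with a span, 72 were among the 100 highest tested genes and 74 among the 200 highest. RpL41 (2R, 24903416 to 24903935), the shortest ribosomal protein, ranked first of the tested genes at 10526 ± 2025 CPM per kb (SD, n = 2). RpLP2 (2R, 16586129 to 16586732) came next at 9590 ± 1184 CPM per kb, a difference within the spread of either gene. With RpLP0 and RpLP1, RpLP2 forms the stalk of the large subunit that recruits the translation factors. RpL8 (3L, 2587456 to 2588883), a protein near the peptidyl transferase centre, stood at 5347 ± 733 CPM per kb. RpLP1 (2L, 419952 to 420864) stood at 4433 ± 241 CPM per kb and RpS2 (2L, 9896265 to 9897552), a 40S protein at the mRNA entry channel, at 4357 ± 496 CPM per kb. These 3 levels overlapped within their spread, and all were below those of RpL41 and RpLP2.

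Within the stalk, the acidic proteins RpLP1 and RpLP2 bind the ribosome through RpLP0. RpLP0 (3L, 22075867 to 22077487) stood at 4399 and 5678 CPM in L(3)mbt KD, 5123 and 5554 CPM in Lint-1 KD, 6114 and 4918 CPM in Lint-O KD, and 5557 and 4736 CPM in EGFP KD. Per kb of span it stood at 3175 ± 358 CPM in EGFP KD, below RpLP1 and RpLP2. The 2 libraries of L(3)mbt KD lay further apart than the means of any 2 groups, and the knockdown libraries overlapped those of EGFP KD for RpLP0 and RpLP1 in every comparison. RpLP2 overlapped in L(3)mbt KD and Lint-O KD, and in Lint-1 KD, at 5253 and 5243 CPM, both libraries lay under the 6298 and 5287 CPM of EGFP KD (edgeR log2 fold change -0.14, SE 0.169, adjusted p = 0.648).

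The lowest tested members were 2 second copies and 2 genes named -like, so that the class is not strictly one of single-copy genes. RpS15Ab (2R, 10821676 to 10822399) stood at 98.8 ± 3.52 CPM per kb in EGFP KD, against 1221 ± 134 CPM per kb for its copy RpS15Aa (X, 13335637 to 13337705). RpL34a (3R, 26058420 to 26059267) stood at 473.7 ± 49.0 CPM per kb, against 3055 ± 390 CPM per kb for RpL34b (3R, 9400237 to 9401226). Thus 1 copy of each pair supplied most of its transcripts. RpLP0-like (2R, 10098518 to 10099590) and RpL24-like (3R, 11430740 to 11431582), whose counterparts in yeast act in assembly of the large subunit, stood at 101.7 ± 14.7 and 557.8 ± 67.7 CPM per kb. RpS27 (3R, 25245955 to 25247514), a 40S protein, was next at 918.0 ± 20.6 CPM per kb. The sources used here do not say how reads shared between near-identical copies were counted, so the split between copies is uncertain.

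Of the 82 members, 77 had enough counts to be tested and 5 had almost none. RpL10Aa and RpL7-like had 0 counts in every library, which allows up to 0.139 to 0.166 CPM depending on the library (3 counts, counting error only). RpS28-like had 3 counts in L(3)mbt KD 2 only, and RpS28a 2 counts each in Lint-1 KD 1 and Lint-O KD 2. RpL37b (current symbol RpL37-2) had 2 and 2 counts in L(3)mbt KD, 10 and 2 in Lint-1 KD, 4 and 2 in Lint-O KD, and 2 and 2 in EGFP KD. Their counterparts were abundant. In EGFP KD, RpS28b (X, 9554623 to 9555661) averaged 1951 ± 58.9 CPM, RpL10Ab (3L, 11822851 to 11824211), the protein of the L1 stalk, 4488 ± 17.3 CPM, and RpL37a, for which no single RefSeq gene was matched, 2346 ± 39.1 CPM (SD, n = 2). RpL37A (2L, 5070957 to 5072055), a separate gene whose name differs by a capital, averaged 1349 ± 64.2 CPM there. In bulk RNA, fewer cells and less RNA per cell cannot be told apart.

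As a class, the genes differed more between the 2 libraries of a group than between groups. Their share of gene reads was 23.3% and 26.1% in L(3)mbt KD, 24.38% and 24.41% in Lint-1 KD, 26.7% and 23.7% in Lint-O KD, and 25.5% and 23.5% in EGFP KD. The lowest and the highest share thus belonged to L(3)mbt KD 1 and Lint-O KD 1, and every knockdown overlapped EGFP KD or lay between its 2 libraries. Group means were 24.7 ± 2.00% in L(3)mbt KD, 24.4 ± 0.0249% in Lint-1 KD, 25.2 ± 2.14% in Lint-O KD and 24.5 ± 1.40% in EGFP KD (SD, n = 2 each). The group means spanned 0.822 percentage points, and the gap between the 2 libraries was 2.83 points in L(3)mbt KD, 3.02 points in Lint-O KD and 1.99 points in EGFP KD. In Lint-1 KD the gap was 0.0352 points.

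**Figure D1:**
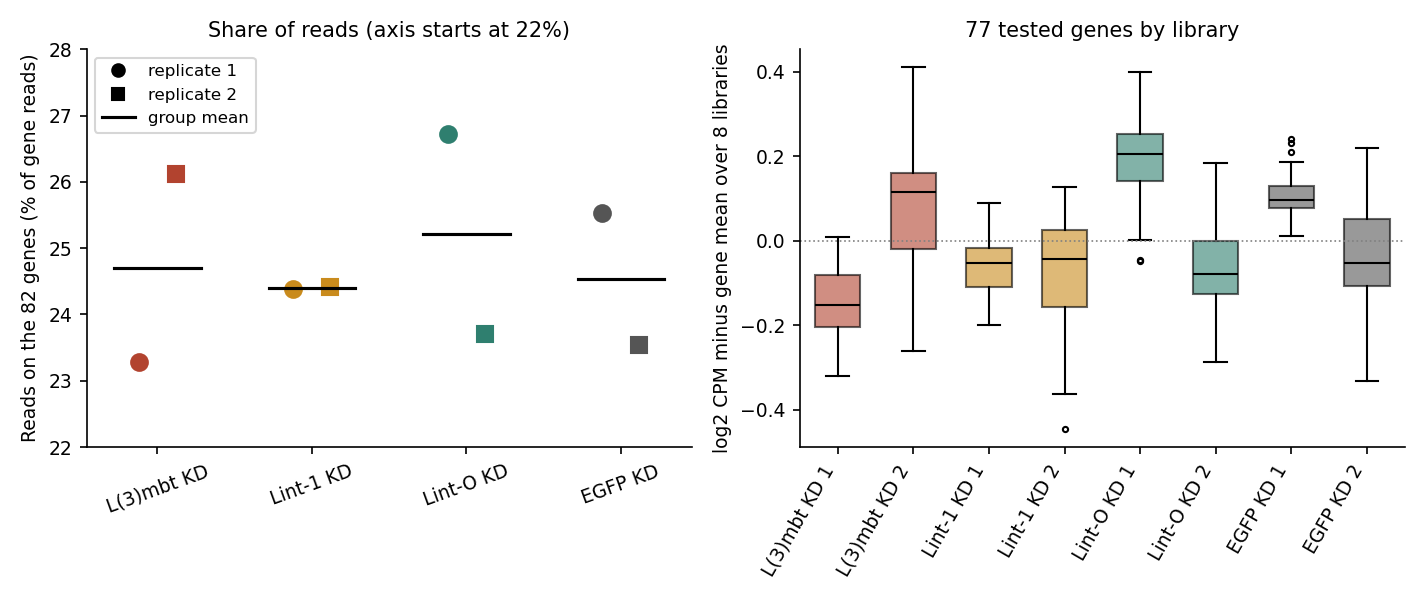
Left, the share of gene reads on the 82 ribosomal protein genes (percent, axis from 22%) for each library, with replicate 1 as a circle, replicate 2 as a square and the group mean as a line. Right, the deviation of the 77 tested genes from their own mean over the 8 libraries (log2 CPM), with boxes at the quartiles, a line at the median, whiskers to the remaining genes and outlying genes as small circles. The class median lies at -0.15 in L(3)mbt KD 1 and 0.21 in Lint-O KD 1. Within a group its gap is 0.269 in L(3)mbt KD, 0.285 in Lint-O KD, 0.148 in EGFP KD and 0.0102 in Lint-1 KD. The group means span 0.112.

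The members moved together in these library differences. Relative to each gene's own mean over the 8 libraries, the class median was -0.15 and 0.12 (log2) in L(3)mbt KD, -0.053 and -0.043 in Lint-1 KD, 0.21 and -0.079 in Lint-O KD, and 0.096 and -0.052 in EGFP KD. In EGFP KD 1 all 77 members lay above their own mean, in Lint-O KD 1 75 did, and in L(3)mbt KD 1 only 1 did. Between the libraries of 1 group, 76 of 77 members were higher in Lint-O KD 1 than in Lint-O KD 2, and 67 in EGFP KD 1 than in EGFP KD 2. In L(3)mbt KD the order was turned, with 67 higher in replicate 2, and in Lint-1 KD 37 members were higher in replicate 1 and 40 in replicate 2. The pooled SD of the class median within groups was 0.148 (log2), against a range of 0.112 between the 4 group means. Both subunits took part: the 60S members held 15.2% to 17.6% and the 40S members 8.04% to 9.17% of gene reads in a library. The subunits were told apart by name only, RpL and RpLP as 60S and RpS as 40S. RpLP0-like and RpL24-like were thus counted with the 60S members.

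Short genes in general shifted between the same libraries. Ribosomal protein genes are short, with a median span of 1347 bp against 2751 bp over tested genes, and 38 of the 76 with a span lay among the 1631 shortest tested genes, with spans up to 1349 bp. The median deviation of these 1631 genes was -0.10 and 0.099 (log2) in L(3)mbt KD, -0.034 and 0.048 in Lint-1 KD, 0.13 and -0.0043 in Lint-O KD, and 0.045 and -0.085 in EGFP KD. That of the 1631 longest, with spans from 7984 bp, was 0.27 and -0.072 in L(3)mbt KD, 0.059 and -0.058 in Lint-1 KD, -0.17 and 0.057 in Lint-O KD, and -0.13 and 0.18 in EGFP KD. In each of the 4 groups the replicate with the higher class median was the one in which short genes were higher and long genes lower. L(3)mbt KD 2 also had the largest share of reads outside genes, 18.5%, against 15.0% to 16.2% in the other 7 libraries. With the gene-span trend removed, the members' median log2 fold change against EGFP KD was -0.048 in L(3)mbt KD, -0.065 in Lint-1 KD and -0.013 in Lint-O KD. With the trend left in, it was -0.055, -0.072 and 0.038. Beyond this refit, the part of gene span or of reads outside genes in the class values was not tested.

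When L(3)mbt was depleted, no ribosomal protein gene passed the test against EGFP KD. Across all tested genes, 10.9% were called in this comparison, 9.58% as higher and 1.31% as lower (edgeR quasi-likelihood test, Benjamini-Hochberg adjusted p under 0.05), and 0 of the 77 members were, also by DESeq2. At an unadjusted p under 0.05, 5 members (6.49%) were lower and 0 higher, against 8.02% lower and 16.3% higher over all tested genes. The median log2 fold change was -0.055 over the members and -0.012 over all tested genes, and 57 members had a negative value. It was -0.056 over the 49 members named RpL or RpLP (60S) and -0.039 over the 28 named RpS (40S). Without L(3)mbt KD 1 the members' median was 0.070 and without EGFP KD 1 it was 0.044, while it was -0.18 without L(3)mbt KD 2 and -0.13 without EGFP KD 2. In 24 members (31.2%) both L(3)mbt KD libraries lay below both EGFP KD libraries, against 22.4% of tested genes, and in 0 both lay above, against 26.6%.

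The members nearest to the threshold in L(3)mbt KD were RpL35, RpS24 and RpL27. RpL35 (X, 5672401 to 5673547) is a 60S protein at the exit of the peptide tunnel. Its level was 1566 and 1433 CPM in L(3)mbt KD, 1425 and 1273 CPM in Lint-1 KD, 2017 and 1791 CPM in Lint-O KD, and 1843 and 1890.1 CPM in EGFP KD. Both libraries of L(3)mbt KD and of Lint-1 KD lay below both of EGFP KD, and those of Lint-O KD lay on either side of them. In L(3)mbt KD the log2 fold change was -0.32 (SE 0.117, edgeR adjusted p = 0.133). RpS24 (2R, 22640526 to 22641419), a 40S protein whose human counterpart is mutated in Diamond-Blackfan anaemia, stood at 1513 and 1341 CPM in L(3)mbt KD, 1462 and 1296 CPM in Lint-1 KD, 2050.1 and 1752 CPM in Lint-O KD, and 1783 and 1813 CPM in EGFP KD. The log2 fold change in L(3)mbt KD was -0.33 (SE 0.126, edgeR adjusted p = 0.139). RpL27 (3R, 25683623 to 25685051), a 60S protein, had 1450.3 and 1283 CPM in L(3)mbt KD, 1353 and 1122 CPM in Lint-1 KD, 2014 and 1734 CPM in Lint-O KD, and 1714 and 1753 CPM in EGFP KD. For RpS24 and RpL27, too, both libraries of L(3)mbt KD and of Lint-1 KD were the low ones and those of Lint-O KD overlapped EGFP KD. The log2 fold change of RpL27 in L(3)mbt KD was -0.34 (SE 0.134, edgeR adjusted p = 0.152).

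Depletion of Lint-1 gave 1 call against EGFP KD. Across all tested genes 9.66% were called, 8.41% as higher and 1.25% as lower. Of the 77 members only RpL35 was called. It fell by 0.47 on the log2 scale (SE 0.117, edgeR adjusted p = 0.0369), and the share of members called as lower, 1 of 77, is near the background. DESeq2 called 2 members as lower, RpL27 and RpL35, beside 191 of all 8244 genes as lower. The call of RpL35 was lost when any 1 of the 4 libraries was left out, at an edgeR adjusted p of 0.160 without EGFP KD 1, 0.214 without EGFP KD 2, 0.0916 without Lint-1 KD 1 and 0.315 without Lint-1 KD 2. Fewer of all tested genes, too, were called in each of these 4 fits. The call of RpL35 was also lost with upper-quartile scaling (edgeR adjusted p = 0.0548). RpL27 was the next by p (edgeR log2 fold change -0.49, SE 0.134, adjusted p = 0.0548). RpS4 (3L, 13041756 to 13044234), a 40S protein, stood at 2994 and 2871 CPM in L(3)mbt KD, 2868 and 2614 CPM in Lint-1 KD, 3702 and 3149 CPM in Lint-O KD, and 3506 and 3661 CPM in EGFP KD. Its libraries of L(3)mbt KD and Lint-1 KD all lay below both of EGFP KD, and in Lint-1 KD its edgeR log2 fold change was -0.39 (SE 0.122, adjusted p = 0.0896).

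Over the whole class in Lint-1 KD, 58 of 77 members had a negative log2 fold change, and the range was -0.49 to 0.21. The median was -0.072 over the members and -0.007 over all tested genes. It was -0.072 in the 60S and -0.071 in the 40S subunit, and without EGFP KD 1 the median of the members was 0.020. At an unadjusted p under 0.05, 14 members (18.2%) were lower and 0 higher, against 8.25% lower and 15.6% higher over all tested genes. In 35 members (45.5%) both Lint-1 KD libraries lay below both EGFP KD libraries, against 26.7% of tested genes. Only RpL21 (2L, 22247111 to 22247875), a 60S protein chosen here after its values were seen, had both Lint-1 KD libraries above, against 29.6% of tested genes. It stood at 3778 and 3942 CPM in Lint-1 KD and 3641 and 3023 CPM in EGFP KD (edgeR log2 fold change 0.21, SE 0.139, adjusted p = 0.384).

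Lint-O KD gave the narrowest range of member fold changes against EGFP KD, from -0.18 to 0.14 (log2). Across all tested genes 5.46% were called, 5.20% as higher and 0.255% as lower, and of the members 0 were, by edgeR as by DESeq2. None had an unadjusted p under 0.05 in either direction, against 10.4% higher and 2.86% lower over all tested genes. The median log2 fold change was 0.038 over the members (0.041 in the 60S and 0.036 in the 40S subunit) and -0.009 over all tested genes, with 59 positive values, but -0.013 with the trend of each library against gene span removed. Scaling the libraries by the ribosomal protein genes themselves, which puts their median near 0 by construction, gave -0.008. It was 0.14 without EGFP KD 1, -0.033 without EGFP KD 2, -0.097 without Lint-O KD 1 and 0.18 without Lint-O KD 2. In 74 members the libraries of the 2 groups overlapped. RpL5 (2L, 22532279 to 22536884), which with RpL11 and 5S rRNA forms the 5S particle of the large subunit, had the smallest p. It stood at 3552 and 3863 CPM in L(3)mbt KD, 3992 and 3734 CPM in Lint-1 KD, 4009 and 3741 CPM in Lint-O KD, and 4559 and 4195 CPM in EGFP KD. All 6 knockdown libraries lay below both of EGFP KD, and the log2 fold change was -0.24 in L(3)mbt KD (SE 0.115, edgeR adjusted p = 0.247), -0.18 in Lint-1 KD (SE 0.115, edgeR adjusted p = 0.373) and -0.18 in Lint-O KD (SE 0.115, edgeR adjusted p = 0.667). In Lint-O KD it was -0.086 without EGFP KD 1 and -0.11 without Lint-O KD 2.

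RpL15 and RpS15Ab were next in Lint-O KD and had the other 2 sets of libraries that did not overlap. RpL15 (3L, 27267255 to 27268445), a 60S protein, stood at 2156 and 2074 CPM in Lint-O KD and 2343 and 2287 CPM in EGFP KD (log2 fold change -0.13, SE 0.112, edgeR adjusted p = 0.816). RpS15Ab stood at 78.6 and 77.7 CPM in Lint-O KD and 73.3 and 69.7 CPM in EGFP KD (log2 fold change 0.13, SE 0.113, edgeR adjusted p = 0.829). With RpL5, 2 members (2.60%) thus had both Lint-O KD libraries below EGFP KD, against 18.3% of tested genes, and 1 (1.30%) had both above, against 21.8%. The standard error of a member's log2 fold change was 0.105 to 0.190 over these comparisons.

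**Figure D2:**
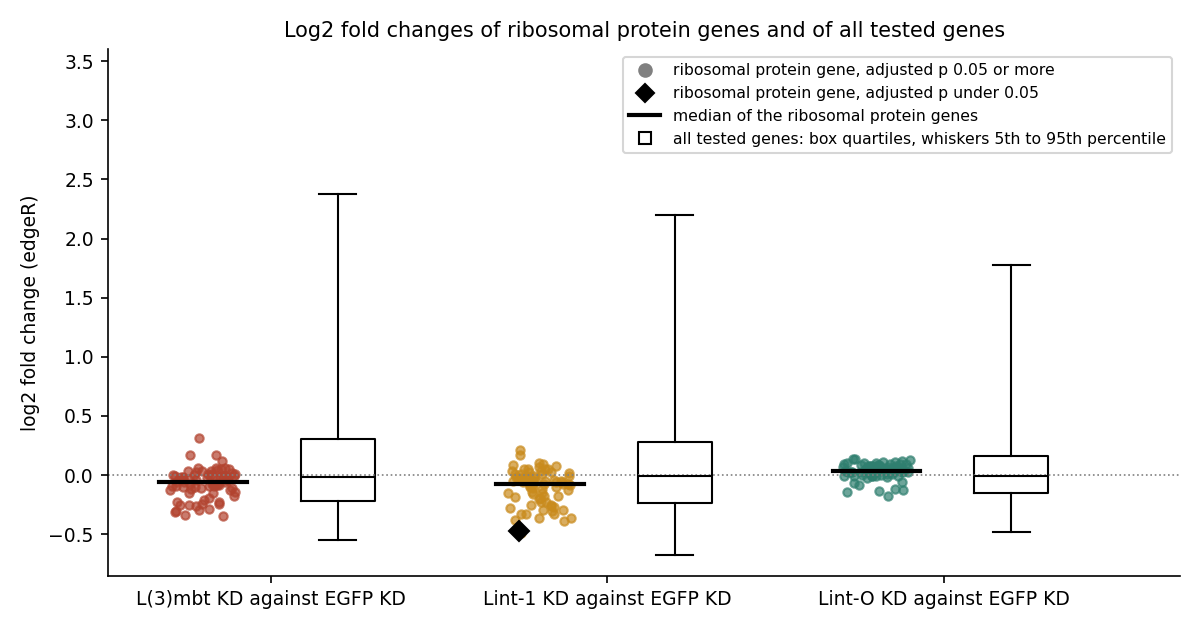
Log2 fold change (edgeR, y axis) of the 77 tested ribosomal protein genes (points, line at their median) beside all 8244 tested genes (box at the quartiles, whiskers at the 5th and 95th percentiles) in L(3)mbt KD, Lint-1 KD and Lint-O KD, each against EGFP KD. The members lie between -0.49 and 0.32 around medians of -0.055, -0.072 and 0.038 (the last is -0.013 with the gene-span trend removed, and -0.008 scaled by the ribosomal protein genes, which sets it near 0 by construction), and the diamond is RpL35 in Lint-1 KD, the 1 call.

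Between knockdowns, 0 members were called by edgeR in any of the 3 pairs. Of all tested genes 0.0728% were called in Lint-1 KD against L(3)mbt KD, where the members' median log2 fold change was -0.032 and 0 members had an unadjusted p under 0.05, and DESeq2 called 0. The median ran from -0.13 without L(3)mbt KD 1 to 0.093 without L(3)mbt KD 2. Scaling by the ribosomal protein genes, near 0 by construction, gave 0.006. The background at an unadjusted p was 2.10% higher and 4.12% lower. Both Lint-1 KD libraries lay below both of L(3)mbt KD in 12 members (15.6%) and above them in 2 (2.60%), against 15.6% and 15.3% of tested genes.

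In Lint-O KD against L(3)mbt KD 0.704% of all tested genes were called, 0.0364% as higher and 0.667% as lower. There the members' median was 0.097, but -0.012 without L(3)mbt KD 1 and -0.046 without Lint-O KD 1. It was 0.23 without L(3)mbt KD 2, 0.245 without Lint-O KD 2 and 0.035 with the gene-span trend removed. Of the members, 11 (14.3%) were higher at an unadjusted p under 0.05, against 5.02% of all tested genes, and 0 were lower, against 9.61%. DESeq2 called 0. Both Lint-O KD libraries lay above both of L(3)mbt KD in 20 members (26.0%) and below them in 1 (1.30%), against 19.6% and 23.2% of tested genes. In Lint-1 KD against Lint-O KD 1.18% of all tested genes were called, 0.910% as higher and 0.267% as lower. The members' median was -0.11, but 0.011 without Lint-O KD 1, and it was -0.28 without Lint-O KD 2 (0.001 when scaled by the ribosomal protein genes). Of the members, 15 (19.5%) were lower at an unadjusted p under 0.05, against 7.51% of all tested genes, and 0 were higher, against 10.1%. Both Lint-1 KD libraries lay below both of Lint-O KD in 27 members (35.1%) and above them in 3 (3.90%), against 25.6% and 27.3% of tested genes. DESeq2 called 2 members as lower, beside 95 of all 8244 genes as lower. The 2 members were RpL27 and RpL35, whose Lint-1 KD libraries all lay below those of Lint-O KD. In edgeR their log2 fold changes were -0.60 (SE 0.135, adjusted p = 0.0768) and -0.50 (SE 0.117, adjusted p = 0.0864).

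Within the class, a principal component analysis of the members' log2 CPM separated the common shift from a second pattern. The first component held 58.2% of the variation, and all 77 members had a loading of the same sign. The second held 33.2%. Its library scores were 0.37 and -1.14 in L(3)mbt KD, -0.35 and -1.02 in Lint-1 KD, 0.39 and 0.74 in Lint-O KD, and 0.059 and 0.95 in EGFP KD. Both Lint-1 KD libraries and L(3)mbt KD 2 scored below 0 and the other 5 above it, so L(3)mbt KD 1 stood with Lint-O KD and EGFP KD. Among the largest loadings on one side were those of RpL27, RpL35, RpS24, RpL6 and RpL35A, and on the other side those of RpL41, RpL39 and RpL21. Since these genes were found from the same values, the pattern is a description and was given no test.

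**Figure D3:**
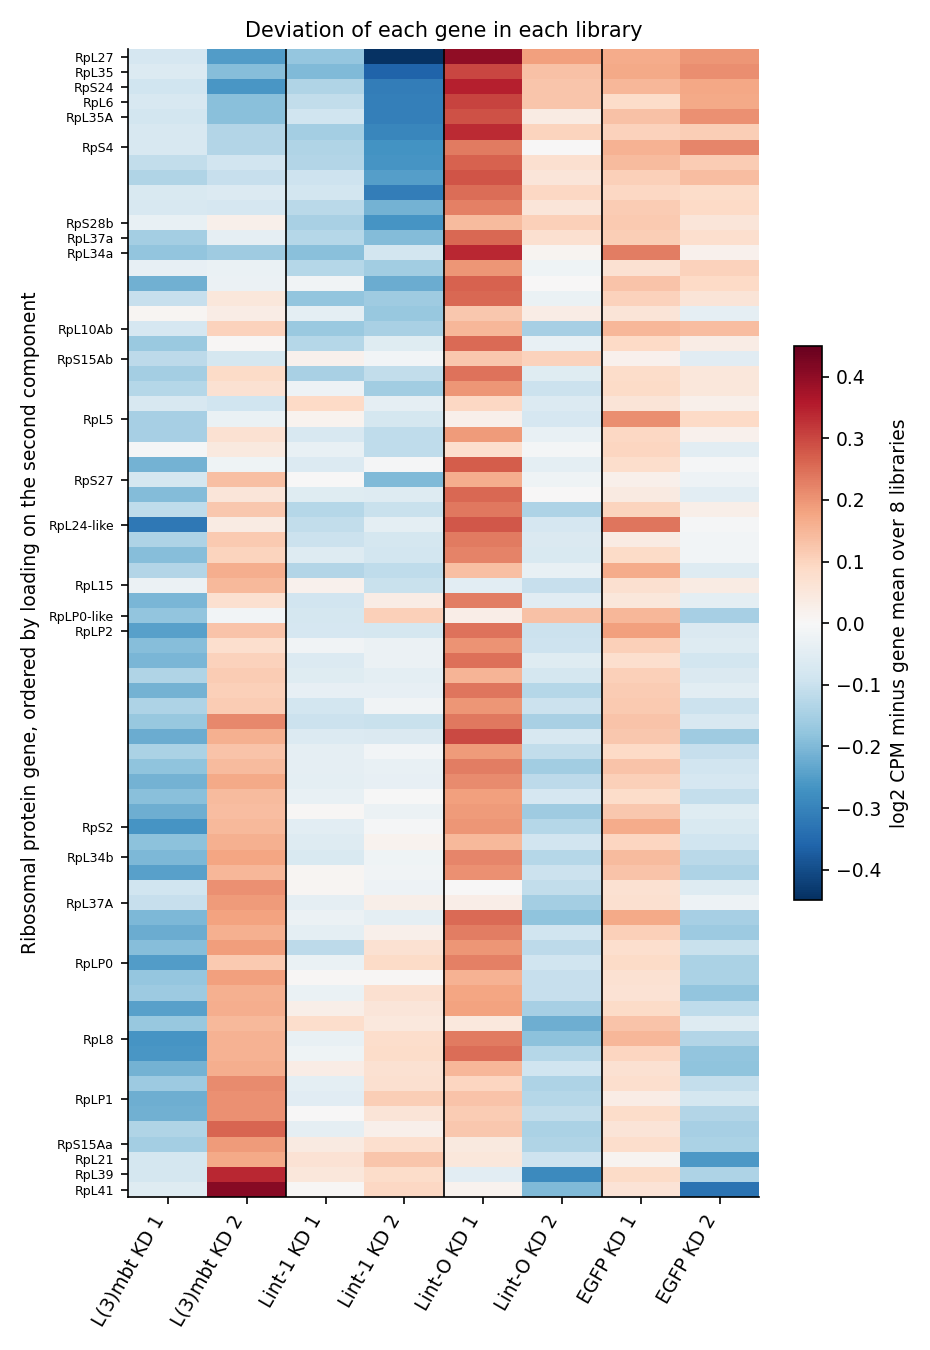
Deviation of 76 of the 77 tested ribosomal protein genes (rows, with the genes named in the text labelled) from its own mean over the 8 libraries (log2 CPM, blue below and red above) in each library (columns), with rows ordered by their loading on the second component. Most rows share 1 colour within Lint-O KD 1, EGFP KD 1 and L(3)mbt KD 1, while RpL27, RpL35, RpS24, RpL6, RpL35A and RpS4 near the top are blue in L(3)mbt KD 2 and Lint-1 KD 2 where RpL41 and RpL39 at the bottom are red.

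Most members followed the class closely. Over the 8 libraries the median SD of a member was 0.144 (log2), and 0.0816 after the class median of each library was taken off. In every library 57 of the 77 members stayed within 0.2 of the class median, and 11 had an SD above 0.15 around it. RpL27 had the widest swing, at 0.078 and -0.37 relative to the class median in L(3)mbt KD, -0.12 and -0.40 in Lint-1 KD, 0.19 and 0.26 in Lint-O KD, and 0.071 and 0.25 in EGFP KD. RpL35 stood at 0.090 and -0.31 in L(3)mbt KD, -0.15 and -0.32 in Lint-1 KD, 0.096 and 0.21 in Lint-O KD, and 0.076 and 0.26 in EGFP KD. Relative to the class, both genes were thus low in Lint-1 KD and in 1 of the 2 L(3)mbt KD libraries only. RpS24 had 0.065 and -0.38 in L(3)mbt KD, -0.084 and -0.27 in Lint-1 KD, 0.14 and 0.20 in Lint-O KD, and 0.054 and 0.23 in EGFP KD.

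The opposite side of the pattern held 2 of the smallest ribosomal proteins. RpL41 stood at 5728 and 7912 CPM in L(3)mbt KD, 5984 and 6355 CPM in Lint-1 KD, 6023 and 5182 CPM in Lint-O KD, and 6218 and 4729 CPM in EGFP KD. Relative to the class median it was at 0.096 and 0.29 in L(3)mbt KD, 0.060 and 0.14 in Lint-1 KD, -0.19 and -0.12 in Lint-O KD, and -0.034 and -0.28 in EGFP KD. All 4 libraries of L(3)mbt KD and Lint-1 KD were thus above the class median and the other 4 below it, while its CPM overlapped EGFP KD in each comparison (edgeR adjusted p = 0.342 in L(3)mbt KD, 0.611 in Lint-1 KD and 0.992 in Lint-O KD). RpL39 (2R, 24061853 to 24062431), a protein of the peptide exit tunnel, stood relative to the class at 0.073 and 0.22 in L(3)mbt KD, 0.10 and 0.13 in Lint-1 KD, -0.26 and -0.21 in Lint-O KD, and -0.011 and -0.088 in EGFP KD.

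**Figure D4:**
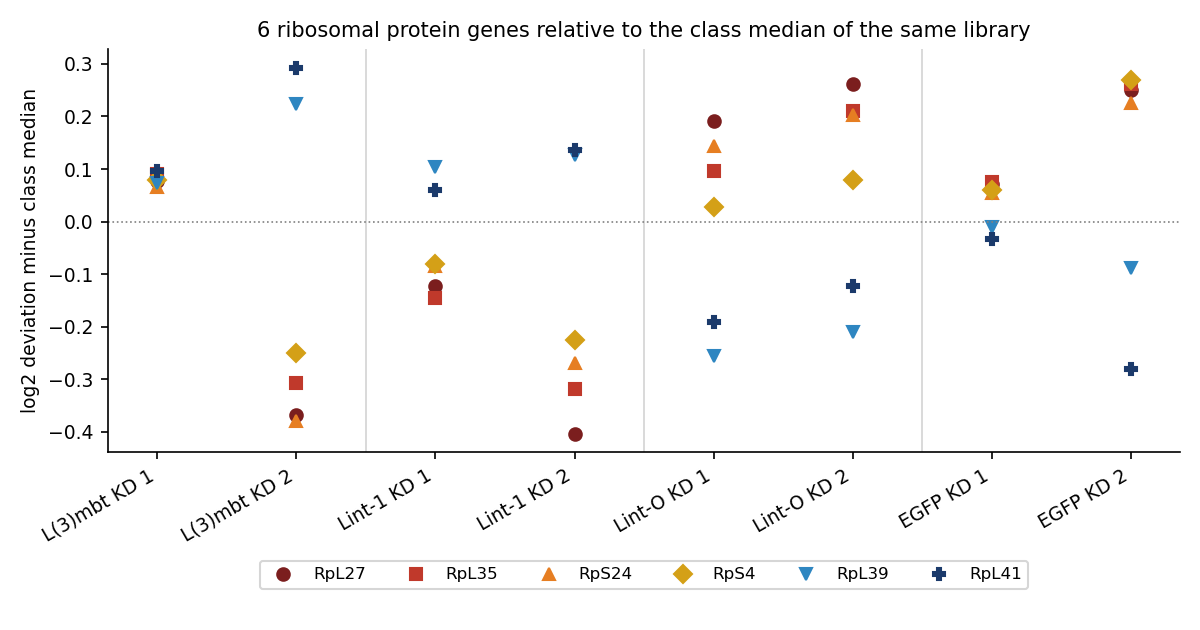
Log2 deviation of 6 ribosomal protein genes minus the class median of the same library (y axis) in the 8 libraries (x axis, replicates 1 and 2 of each group side by side). RpL27, RpL35, RpS24 and RpS4 lie below 0 in both Lint-1 KD libraries and in L(3)mbt KD 2, down to -0.40, and above 0 in the other 5, with RpL41 and RpL39 on the opposite side in 7 of the 8 libraries.

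The genes with the largest loadings on the second component belong to both subunits, and the 76 members with a position lay on 2L (17 genes), 2R (19), 3L (14), 3R (18), the X (7) and chromosome 4 (1), with median loadings of -0.065 on 2R to 0.024 on chromosome 4. These 76 genes are not independent replicates and share their libraries. Across them, Spearman's rho of the loading was 0.10 with log2 gene span, as a description. It was -0.55 with CPM per kb, taken as the mean over all 8 libraries.

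The other genes of the translation machinery were taken as lists. Their counts stand beside the shares of all tested genes called as higher and lower, which were 9.58% and 1.31% in L(3)mbt KD, 8.41% and 1.25% in Lint-1 KD, and 5.20% and 0.255% in Lint-O KD. By DESeq2, 887 of all 8244 genes were called higher and 164 lower in L(3)mbt KD, 801 and 191 in Lint-1 KD, and 499 and 34 in Lint-O KD. Most edgeR calls of the lists were lost without 1 library, which leaves 1 library in a group. Over all tested genes, too, fewer were then called, except without L(3)mbt KD 1, where more were. The losses are therefore not a trait of these lists alone. Of 10 called genes in L(3)mbt KD, 9 lost the call without EGFP KD 1 (edgeR adjusted p 0.0973 to 0.216), without EGFP KD 2 (0.0610 to 0.209) or without L(3)mbt KD 2 (0.0661 to 0.224), and 3 without L(3)mbt KD 1 (0.0543 to 0.110). Of 7 in Lint-1 KD, 6 lost it without EGFP KD 1 (0.0632 to 0.199), without EGFP KD 2 (0.125 to 0.290) or without Lint-1 KD 2 (0.0812 to 0.299), and 5 without Lint-1 KD 1 (0.0991 to 0.158). In Lint-1 KD Thor kept its call without Lint-1 KD 1, and Ef1alpha100E, called in all 3 knockdowns, kept its call each time.

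Of 29 ribosome biogenesis genes, 3 fell in L(3)mbt KD and 2 in Lint-1 KD, with median log2 fold changes of -0.30 and -0.23, and 0 were called in Lint-O KD by edgeR or DESeq2 (median -0.089). At an unadjusted p under 0.05, 16 (55.2%) were lower in L(3)mbt KD, 9 (31.0%) in Lint-1 KD and 1 (3.45%) in Lint-O KD, against 8.02%, 8.25% and 2.86% of tested genes, and 0 were higher. DESeq2 called 4 in L(3)mbt KD and 2 in Lint-1 KD, all lower. All 29 had a negative value in L(3)mbt KD. The list's median deviation from each gene's mean was -0.17 and -0.14 in L(3)mbt KD, -0.099 and -0.070 in Lint-1 KD, 0.14 and 0.063 in Lint-O KD, and 0.18 and 0.13 in EGFP KD. Unlike the ribosomal protein genes, whose libraries overlapped, the biogenesis list thus lay below EGFP KD in both libraries of L(3)mbt KD and Lint-1 KD. The medians of the lists of initiation, of elongation and release, and of RNA polymerase I genes also lay below both EGFP KD libraries there. No test of these differences was made. CG8939, of the Spb1 family of rRNA methyltransferases, averaged 132.7 ± 18.7 CPM in L(3)mbt KD, 140.4 ± 8.63 CPM in Lint-1 KD and 202.6 ± 2.05 CPM in EGFP KD (log2 fold changes -0.61 and -0.53, SE 0.123 each, edgeR adjusted p = 0.0122 and 0.0273). In L(3)mbt KD l(3)72Dn (-0.55, SE 0.136, edgeR adjusted p = 0.0321) and Ns3, a GTPase of the nucleostemin family (-0.42, SE 0.113, edgeR adjusted p = 0.0459), also fell. In Lint-1 KD the other was Nnp-1 (-0.40, SE 0.0992, edgeR adjusted p = 0.0375).

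The mitochondrial ribosomal proteins, which build a separate ribosome, had 72 tested genes. Of them 2 fell in L(3)mbt KD and 1 in Lint-1 KD, with medians of -0.23 and -0.16, and 0 were called in Lint-O KD by edgeR or DESeq2 (median -0.029). At an unadjusted p under 0.05, 22 (30.6%) were lower and 1 higher in L(3)mbt KD, 13 (18.1%) lower and 0 higher in Lint-1 KD, and 0 either way in Lint-O KD. The shares of tested genes lower at that p were 8.02%, 8.25% and 2.86%. DESeq2 called 4 lower and 1 higher in L(3)mbt KD and 1 lower in Lint-1 KD. The mRpL37 transcript averaged 90.1 ± 11.6 CPM in L(3)mbt KD, 92.8 ± 3.70 CPM in Lint-1 KD and 132.5 ± 4.88 CPM in EGFP KD (log2 fold changes -0.56 and -0.51, SE 0.126 each, edgeR adjusted p = 0.0210 and 0.0335). The other, mRpS10, fell in L(3)mbt KD (-0.49, SE 0.132, edgeR adjusted p = 0.0484). The list's median deviation was -0.23 and -0.0072 in L(3)mbt KD, -0.11 and 0.033 in Lint-1 KD, 0.20 and -0.023 in Lint-O KD, and 0.20 and 0.0083 in EGFP KD, so that it differed between the libraries of a group.

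**Figure D5:**
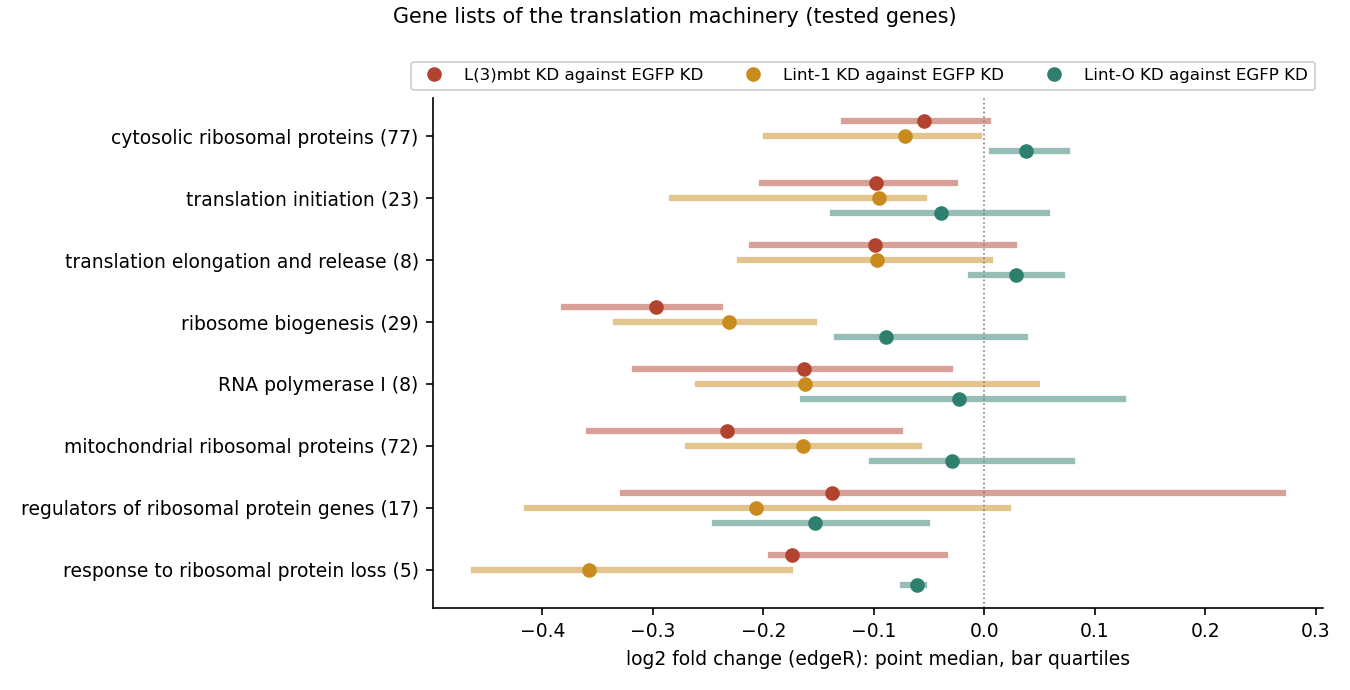
Median log2 fold change (point) and quartiles (bar) of the tested genes of 8 lists (rows, number of genes in brackets) in L(3)mbt KD, Lint-1 KD and Lint-O KD, each against EGFP KD. The ribosomal protein genes lie at -0.055, -0.072 and 0.038 (the last is -0.013 with the gene-span trend removed, and -0.008 scaled by the ribosomal protein genes, which sets it near 0 by construction), and the ribosome biogenesis genes at -0.30, -0.23 and -0.089.

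Among 23 translation initiation factors, 2 rose and 2 fell in L(3)mbt KD, 2 fell in Lint-1 KD and 0 were called in Lint-O KD by edgeR or DESeq2 (0 at an unadjusted p under 0.05), with medians of -0.098, -0.095 and -0.039. The 2 higher (8.70%) are below the 9.58% of tested genes called as higher in L(3)mbt KD. At an unadjusted p under 0.05, 4 (17.4%) were lower in L(3)mbt KD and 4 in Lint-1 KD, against 8.02% and 8.25% of tested genes. In L(3)mbt KD Rbp2, listed today as eIF4H1, a cofactor of the helicase eIF4A (0.55, SE 0.133, edgeR adjusted p = 0.0298), and pAbp, the poly(A)-binding protein (0.45, SE 0.114, edgeR adjusted p = 0.0356), rose. There CG5642, the subunit l of initiation factor eIF3 (-0.42, SE 0.101, edgeR adjusted p = 0.0277), and eIF-2beta (-0.42, SE 0.109, edgeR adjusted p = 0.0402), named after its values were seen, fell. In Lint-1 KD Tango7, the subunit m of eIF3 (-0.46, SE 0.110, edgeR adjusted p = 0.0310), and eIF-2beta (-0.41, SE 0.109, edgeR adjusted p = 0.0459) fell. The 8 elongation and release factors had medians of -0.099 in L(3)mbt KD, -0.097 in Lint-1 KD and 0.029 in Lint-O KD. In L(3)mbt KD and in Lint-1 KD, 2 of them were lower and 1 higher at an unadjusted p under 0.05. In Lint-O KD 0 were lower and 1 higher. The shares of tested genes lower at that p were 8.02%, 8.25% and 2.86%. Of the 8 factors only Ef1alpha100E, a second gene of the elongation factor that brings tRNA to the ribosome, passed. It rose to 10.5 ± 0.0834 CPM in L(3)mbt KD, 6.72 ± 1.61 CPM in Lint-1 KD and 6.34 ± 1.12 CPM in Lint-O KD, against 0.906 ± 0.263 CPM in EGFP KD (log2 fold changes 3.52, 2.87 and 2.79, SE 0.319, 0.321 and 0.322, edgeR adjusted p = 0.000131, 0.000529 and 0.000802).

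Among 17 regulators of ribosomal protein gene transcription and translation, 1 passed. Thor, the Drosophila 4E-BP that represses cap-dependent initiation, averaged 50.6 ± 22.04 CPM in Lint-1 KD and 104.6 ± 9.81 CPM in EGFP KD (edgeR log2 fold change -1.05, SE 0.249, adjusted p = 0.0299). The fold change was -1.60 without Lint-1 KD 1 and -0.66 without Lint-1 KD 2 (edgeR adjusted p = 0.0812). At an unadjusted p under 0.05, 5 regulators (29.4%) were lower and 0 higher in Lint-1 KD, against 8.25% and 15.6% of tested genes. In L(3)mbt KD 0 regulators were called by edgeR and 1 higher by DESeq2 (3 higher and 3 lower at an unadjusted p under 0.05), and in Lint-O KD 0 by either (2 lower at an unadjusted p under 0.05). Of 8 RNA polymerase I genes edgeR called 0 in all 3 comparisons and DESeq2 called 1, lower, in L(3)mbt KD, with 2 lower in L(3)mbt KD, 1 in Lint-1 KD and 0 in Lint-O KD at an unadjusted p under 0.05. Of 5 genes of the response to ribosomal protein loss, such as Xrp1, edgeR and DESeq2 called 0 in each comparison, with 1 lower in Lint-1 KD and 0 elsewhere at an unadjusted p under 0.05.

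Among the paralogs left out of the class and 2 further ribosomal genes, 11 were tested, and most were not called. Of these, 2 were called in L(3)mbt KD, 3 in Lint-1 KD and 2 in Lint-O KD, all higher, while the medians of the 11 were -0.030, -0.006 and 0.11. DESeq2 called the same numbers as higher and 1 as lower in Lint-1 KD. RpS5b, a 40S protein gene expressed mainly in the germline, stood at 1290 ± 240.4 CPM in L(3)mbt KD, 912.2 ± 30.5 CPM in Lint-1 KD, 353.7 ± 48.4 CPM in Lint-O KD and 154.0 ± 20.002 CPM in EGFP KD. Its log2 fold changes of 3.07, 2.57 and 1.20 (SE 0.173, 0.170 and 0.163, edgeR adjusted p = 1.41e-05, 2.9e-05 and 0.00211) compare with at most 0.49 in size for any tested member. RpS19b, another 40S paralog, stood at 176.4 ± 35.5 CPM in L(3)mbt KD, 234.5 ± 5.22 CPM in Lint-1 KD, 113.5 ± 6.27 CPM in Lint-O KD and 62.1 ± 5.80 CPM in EGFP KD (edgeR log2 fold changes 1.51, 1.92 and 0.87, adjusted p = 0.000242, 7.25e-05 and 0.00869). The call of RpS19b in Lint-O KD was lost without EGFP KD 2 (edgeR adjusted p = 0.0798) and without Lint-O KD 1 (0.0736). The third call in Lint-1 KD was RpS10a, at 17.8 ± 0.763 CPM in Lint-1 KD and 10.3 ± 2.21 CPM in EGFP KD (edgeR log2 fold change 0.79, SE 0.206, adjusted p = 0.0439). Its call was lost without EGFP KD 2 (edgeR adjusted p = 0.314), Lint-1 KD 1 (0.142) or Lint-1 KD 2 (0.233). All 3 paralogs were named after their values were seen.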

How the data were processed

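Gene counts of 8 RNA-seq libraries were used as the authors deposited them: whole, unnormalised reads per gene, for mRNA libraries that keep strand, per the labels' protocols. The submitters' processing notes name HISAT2, HTSeq, edgeR and the build dm6; the sources used here do not give their versions or roles, the strand setting, the annotation or the handling of reads with several matches. The other 6 samples of the series (ChIP and input) were not analysed here. All 8 count columns matched a sample and 0 columns were left unused. The summary lines for reads outside genes (15.0% to 18.5%) and for ambiguous reads (1.05% to 1.13%) stayed out of library sizes and tests.

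Symbols were matched to RefSeq (12512 as current symbols, 3996 through synonyms, 219 not matched), which gave positions and gene spans. Of 151 typed list entries 7 had no row in the table and 41 were found under another name. Genes were filtered with filterByExpr, scaled by TMM and tested with the quasi-likelihood test of edgeR 4.0.16 (R 4.3.3, with limma 3.58.1 loaded) in 1 model over the 8 libraries that held no term but the group and left 4 residual degrees of freedom. P-values were adjusted by Benjamini-Hochberg over 8244 genes and called under 0.05. The biological coefficient of variation was 15.4%. Log2 CPM for deviations and components used a prior count of 3. The pipeline was tested on simulated data. DESeq2 1.42.0, other scalings and filters, removal of the gene-span trend, a replicate block and left-out libraries were the alternatives. That trend was the lowess (span 0.3) of each library's log CPM deviations on log2 gene span, entered as an offset in the fit on counts. Genes without a span had no such offset.

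Members and lists were chosen with earlier results of these data known. Named with values were the members called against EGFP KD or, under 3 calls, the 3 with the smallest p; the 5 highest and 5 lowest per kb; letter copies, -like genes and stalk proteins; and up to 3 called genes of each other list. RpL21, eIF-2beta, RpS5b, RpS19b, RpS10a, Mlc2, Act57B and the genes of the second component were named after their values were seen. The gene span, introns included, stood in for exonic length. The 2 libraries of a group were not duplicates: a chi-square test of their counts gave 21.4 to 50.8 per degree of freedom. The values of 1 member are not reported here, though it entered the fits and the class summaries.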

Additional observations from a re-analysis of the deposited data

How the results depend on the processing

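Members called in Lint-1 KD against EGFP KD numbered 1, but 0 with upper-quartile scaling and 0 when libraries were scaled by the ribosomal protein genes (an alternative chosen after seeing the data). They numbered 2 with DESeq2, 3 without a low-count filter and 3 with only the 4 libraries compared, all lower. All genes called lower were 103 of 8244 in the reported fit, 87 of 8244 with upper-quartile scaling and 24 of 8244 when scaled by the ribosomal protein genes. They were 191 of 8244 with DESeq2, 277 of 11551 without the filter and 119 of 7983 with only the 4 libraries. In Lint-1 KD against Lint-O KD the count of 0 became 2 with DESeq2, 4 without the filter and 1 with only the 4 libraries compared, all lower. All genes called lower there were 22 of 8244 in the reported fit. With these 3 alternatives they were 95 of 8244, 146 of 11551 and 174 of 8024. The cause of these moves was not tested. The other counts of 0 stayed at 0 under the alternatives other than the crossed block described next. With 1 library left out, the members' median log2 fold change spanned -0.18 to 0.070 in L(3)mbt KD, -0.16 to 0.020 in Lint-1 KD and -0.097 to 0.18 in Lint-O KD, each against EGFP KD. Between knockdowns it spanned -0.13 to 0.093 in Lint-1 KD against L(3)mbt KD, -0.046 to 0.245 in Lint-O KD against L(3)mbt KD and -0.28 to 0.011 in Lint-1 KD against Lint-O KD, so its sign rests on single libraries in each comparison. With the gene-span trend removed it was -0.048, -0.065 and -0.013 against EGFP KD. Scaling by the ribosomal protein genes gave a median over all genes of 0.10 in Lint-1 KD against Lint-O KD, against -0.004 with TMM.

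Same-numbered libraries deviated together in 2 of 6 group pairs, L(3)mbt KD with Lint-1 KD (r = 0.36 over tested genes, 0.74 over members) and Lint-O KD with EGFP KD (0.22 and 0.27). In the other 4 pairs r was -0.38 to -0.18 over tested genes and -0.82 to -0.29 over members. The numbers were therefore not taken to pair the samples. With the replicate block, 0 members were called in Lint-1 KD against EGFP KD, and the counts over all genes were 683, 593 and 339 against 898, 796 and 450 without it. With the block crossed (numbers of EGFP KD and Lint-O KD swapped, chosen after seeing the data), 8 members were called in L(3)mbt KD and 16 in Lint-1 KD against EGFP KD, 8 in Lint-O KD against L(3)mbt KD and 16 in Lint-1 KD against Lint-O KD. The same fit called 2528, 2532, 1230 and 1749 of all 8244 genes in these comparisons. With both directions pooled, the share of members called was at or below that of all genes. Split by direction, members called were 1 higher and 7 lower, 0 and 16, 7 and 1, and 0 and 16, in the same order. All genes called were 1342 higher and 1186 lower, 1300 and 1232, 572 and 658, and 788 and 961. In both Lint-1 KD comparisons the share of members called lower was thus above that of all genes. So was the share called higher in Lint-O KD against L(3)mbt KD.

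For all genes, DESeq2 called 55, 246 and 295 genes between knockdowns (Lint-1 KD against L(3)mbt KD, Lint-O KD against L(3)mbt KD, Lint-1 KD against Lint-O KD) against 6, 58 and 97 by edgeR. Among values of single named genes, 324 kept their direction and side of the threshold, 113 lost the call and 5 gained it, and 0 reversed. With 2 libraries a group, a member's standard error of 0.105 to 0.190 (log2) limits the precision of these comparisons.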
